A study of Mus musculus with 6 samples.

Results

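Scramble control adipocytes are the baseline of a study in C3H10T1/2, a line of mouse mesenchymal cells that is able to form adipocytes under inducing medium. Of the 6 single-colour Affymetrix Mouse Gene ST arrays of the series, the 3 titled as scramble controls were taken here, and the 3 arrays of the hairpin against Zc3h10 were not used. Each control is labelled as an adipocyte after 9 days of differentiation. Each had also been exposed for 72 h to an adenovirus at a multiplicity of infection of 50, so virus was present in every control. It expressed a scrambled hairpin sequence from a U6 promoter, and the sources used here do not give the day on which exposure began. The labels call the arrays biological replicates of 1 cell line without naming separate cultures, so every SD below measures the spread between these 3 samples. Genes were chosen from probe sets with a single gene symbol, with the brightest probe set standing for each gene. This gave 21996 genes from 23043 such probe sets, out of 33079 in the table. Levels are means of log2 intensity over arrays 1, 2 and 3 with the SD (n = 3 throughout). With 1 group there is no contrast to test, and the number of arrays limits the precision.

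Fat cells take up fatty acids, esterify them to triglyceride and store them in droplets coated with perilipins, and release them again through a chain of lipases. White fat cells store energy and secrete hormones such as leptin, while brown and beige fat cells carry many mitochondria and can burn fuel as heat through uncoupling protein 1 (UCP1). PPARγ and C/EBPα are the transcription factors that drive the conversion of mesenchymal precursors, which themselves make collagen-rich matrix. Many of the enzymes and subunits involved exist as several isoforms, each encoded by a gene of its own.

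The brightness of genes that a fat cell has no known use for set the background. Over 1375 olfactory and vomeronasal receptor genes, which serve smell and pheromone sensing, the median level was 2.34. The limit was set at 4.34 (an intensity of 20.3), which 35 of the 1375 exceed. A gene counts as above background where all 3 arrays lie over that limit. This held for 11135 of 21996 genes (50.6%) and for 10491 of 18862 protein-coding genes (55.6%). It held for 314 of 1920 long non-coding RNA genes and for 62 of 80 small nucleolar RNA genes. Signal depends on a gene's probes as well as on its transcript and is not scaled to length. A member is therefore said to lead its family only where its level exceeds the next by over 1 log2 unit and the arrays of the pair do not overlap.

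**Figure D1:**
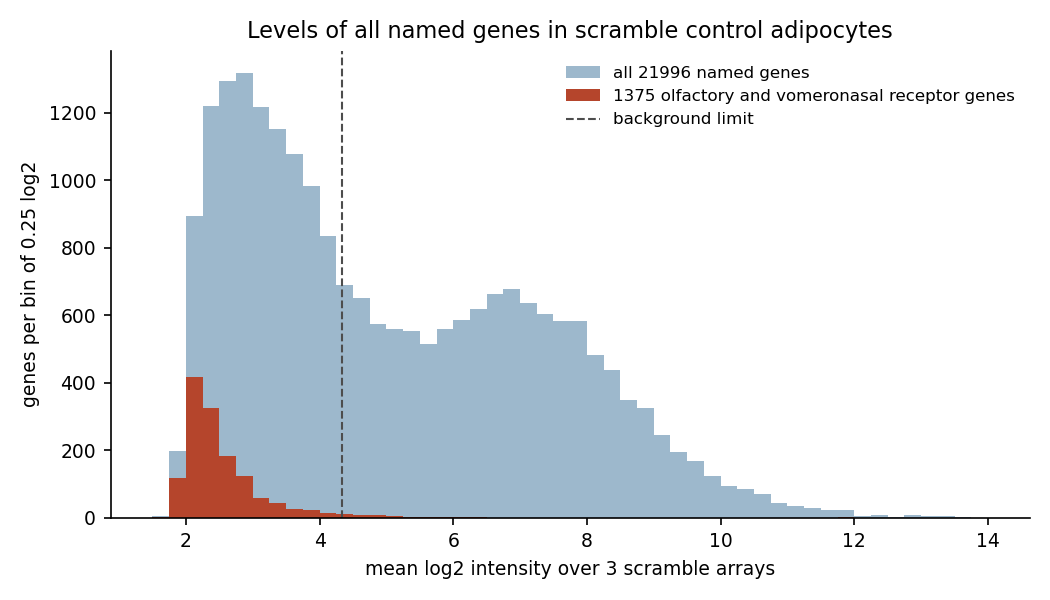
Histogram of the mean log2 intensity over the 3 scramble arrays (horizontal axis) against the number of genes per bin of 0.25 log2 (vertical axis), for all 21996 named genes and for the 1375 olfactory and vomeronasal receptor genes. The receptors lie mostly left of the background limit of 4.34 (dashed line), and the genes as a whole show a second rise to its right.

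The 3 arrays were close to each other. Their median intensities over all probe sets were 15.6, 15.6 and 15.7, and log2 values correlated across genes at r of 0.994 to 0.995 over the 3 pairs (genes are not independent replicates). Between 5 and 7 genes differed by 2-fold or more in a pair of arrays among those above background. The median SD of genes above background was 0.091, and 265 of them exceeded 0.3. Spread shrank with brightness, from a median SD of 0.146 among 10437 genes below the limit to 0.062 among 438 genes over 10. Zc3h10, which encodes a zinc finger protein that binds RNA and is the target of the study's other arm, read 4.69, 5.29 and 5.14 in these controls. It was therefore a dim gene here, at 5.04 ± 0.31, with a spread wider than that of most genes of its brightness.

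The brightest transcripts came from the mitochondrial genome. Of the 20 highest genes, with predicted genes and small RNAs left out, 9 are encoded there. They were led by ND4, a subunit of respiratory complex I, which read 13.65, 13.66 and 13.61. COX1, a catalytic subunit of cytochrome c oxidase, followed at 13.40 ± 0.02, and CYTB of complex III at 13.36 ± 0.03. The other 6 (ND1, ND5, ND3, ND4L, ND2 and COX3) ranged from 13.30 down to 13.01.

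The other 11 of the 20 are nuclear genes. Fth1, the heavy chain of the iron store ferritin, was the highest of them at 13.17 ± 0.03. Bgn, the matrix proteoglycan biglycan, came next at 12.96 ± 0.05. Fabp4, the fatty acid carrier of fat cells, ranked 17 of 21996 genes, and Scd1, which makes monounsaturated fatty acids, ranked 18. The rest were the translation genes Eif4a1, Eef1a1 and Rpl21, the respiratory chain and ATP synthase subunits Cox6a1 and Atp5b, the intermediate filament gene Vim and the secreted growth factor gene Ptn. They lay between 12.93 and 12.49. Eif4a1 and Rpl21 hold their place by 1 of several probe sets, the dimmest of which read 7.97 and 5.84. Signal was concentrated: the 20 brightest genes of any kind held 5.95% of the summed intensity of all named genes, and the 1000 brightest held 47.0%.

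All 18 measured general adipocyte markers were above background, against 50.6% of all genes. Fabp4 read 12.68, 12.82 and 12.85 on arrays 1 to 3. Lpl, the lipase that frees fatty acids from lipoproteins, stood at 11.75 ± 0.06, and Cd36, a fatty acid uptake receptor, at 11.73 ± 0.08. Adipoq, the hormone adiponectin, was at 9.08 ± 0.03. The dimmest of the 18 were Pck1, the enzyme of glyceroneogenesis, at 5.92 ± 0.10 and Adig, a small adipocyte membrane protein, at 5.64 ± 0.17. Cfd was not analysed here.

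In lipid handling, 14 of 19 families had a single leading member, and 88 of 113 measured members were above background (50.6% of all genes). Among the fatty acid binding proteins, Fabp4 exceeded Fabp5, the form first found in skin, by 2.72 ± 0.07 log2 units (6.6-fold). Fabp3, the heart form, followed at 8.16 ± 0.06. The other 7 members, among them the liver form Fabp1 at 2.42 ± 0.15, were at background. A few of these levels rest on 1 of several probe sets: the second probe set of Fabp3 read 3.75, while those of Fabp5 spanned 8.68 to 10.06.

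On the droplet surface, the broadly used coat protein gene Plin2 was brighter than the fat cell coat gene Plin1. Plin2 read 11.24, 11.40 and 11.37, and Plin1 read 9.65, 9.76 and 9.76. The gap of 1.62 ± 0.03 (3.07-fold) held on each array. Plin4 lay at 9.16 ± 0.08 and Plin3 at 7.88 ± 0.03. Plin5, the coat of oxidative tissues, was lowest at 5.15 ± 0.13. All 5 perilipins were thus above background (50.6% of all genes), in an order in which no neighbours overlapped.

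Among the proteins that shape and enlarge droplets, Cidec led Cidea by 1.82 ± 0.05. Cidec, which fuses droplets in white fat, read 11.52, 11.68 and 11.60. Cidea, known from brown fat, read 9.64, 9.87 and 9.81. All 7 measured genes of the group were above background (50.6% of all genes). They include G0s2, an inhibitor of the main triglyceride lipase, at 8.17 ± 0.31.

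The lipases did not have 1 leader. Pnpla2, which takes the first fatty acid off triglyceride, stood at 11.26 ± 0.15 and the lysosomal lipase Lipa at 11.23 ± 0.03, and their arrays overlapped. The enzymes for the later steps were dimmer by about 3 log2 units. Mgll, which splits monoglyceride, was at 8.27 ± 0.19, and hormone-sensitive lipase Lipe was at 8.25 ± 0.25. Lipe was also among the more variable of the fat cell genes, with 8.49 on array 2 and 8.26 on array 3, both above array 1. Lpl exceeded Lipg, the endothelial lipase, by 5.15 ± 0.10 (35.6-fold).

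The steps from glycerol phosphate to triglyceride each had a leading gene. For the first acylation it was Gpam, the mitochondrial enzyme, at 10.57 ± 0.13, ahead of Gpat4 by 1.96 ± 0.11. For the second it was Agpat2, whose loss causes lipodystrophy, at 10.71 ± 0.14. Lpin1, the phosphatidic acid phosphatase of fat and muscle, was at 9.69 ± 0.15 and led Lpin2 by 3.66 ± 0.35. At the last step Dgat2 read 10.80, 11.07 and 11.05, and Dgat1 read 8.45, 8.72 and 8.75. That gap was 2.33 ± 0.03 (5.04-fold) and of the same size on each array.

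New fatty acids are made by a chain in which all 8 measured genes were above background (50.6% of all genes). Fasn, fatty acid synthase, stood at 11.88 ± 0.08, and Acly, which supplies acetyl-CoA, at 11.18 ± 0.09. Acaca, the cytosolic acetyl-CoA carboxylase, was at 9.48 ± 0.11, well over the mitochondrial form Acacb at 7.07 ± 0.22. Scd1 read 12.76, 12.80 and 12.77 and stood 7.39 ± 0.22 over Scd3, the largest lead among the lipid families. The other desaturase Scd2 was not analysed here. Elovl5 at 10.33 ± 0.01 and Elovl6 at 9.73 ± 0.08 were the brightest elongases, without a gap over 1.

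For entry of fatty acids into mitochondria, Cpt2 on the inner membrane was at 10.20 ± 0.14 and the liver-type outer enzyme Cpt1a at 8.94 ± 0.05. Cpt1b, another form of the outer enzyme, was not analysed here. Of the dehydrogenases of β-oxidation, the medium-chain enzyme Acadm led at 12.05 ± 0.02, ahead of the long-chain enzyme Acadl by 1.54 ± 0.16. All 11 measured acyl-CoA dehydrogenases were above background (50.6% of all genes). Glycerol leaves fat cells through the channel gene Aqp7, at 9.96 ± 0.07, which led Aqp1 by 1.29 ± 0.15.

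**Figure D2:**
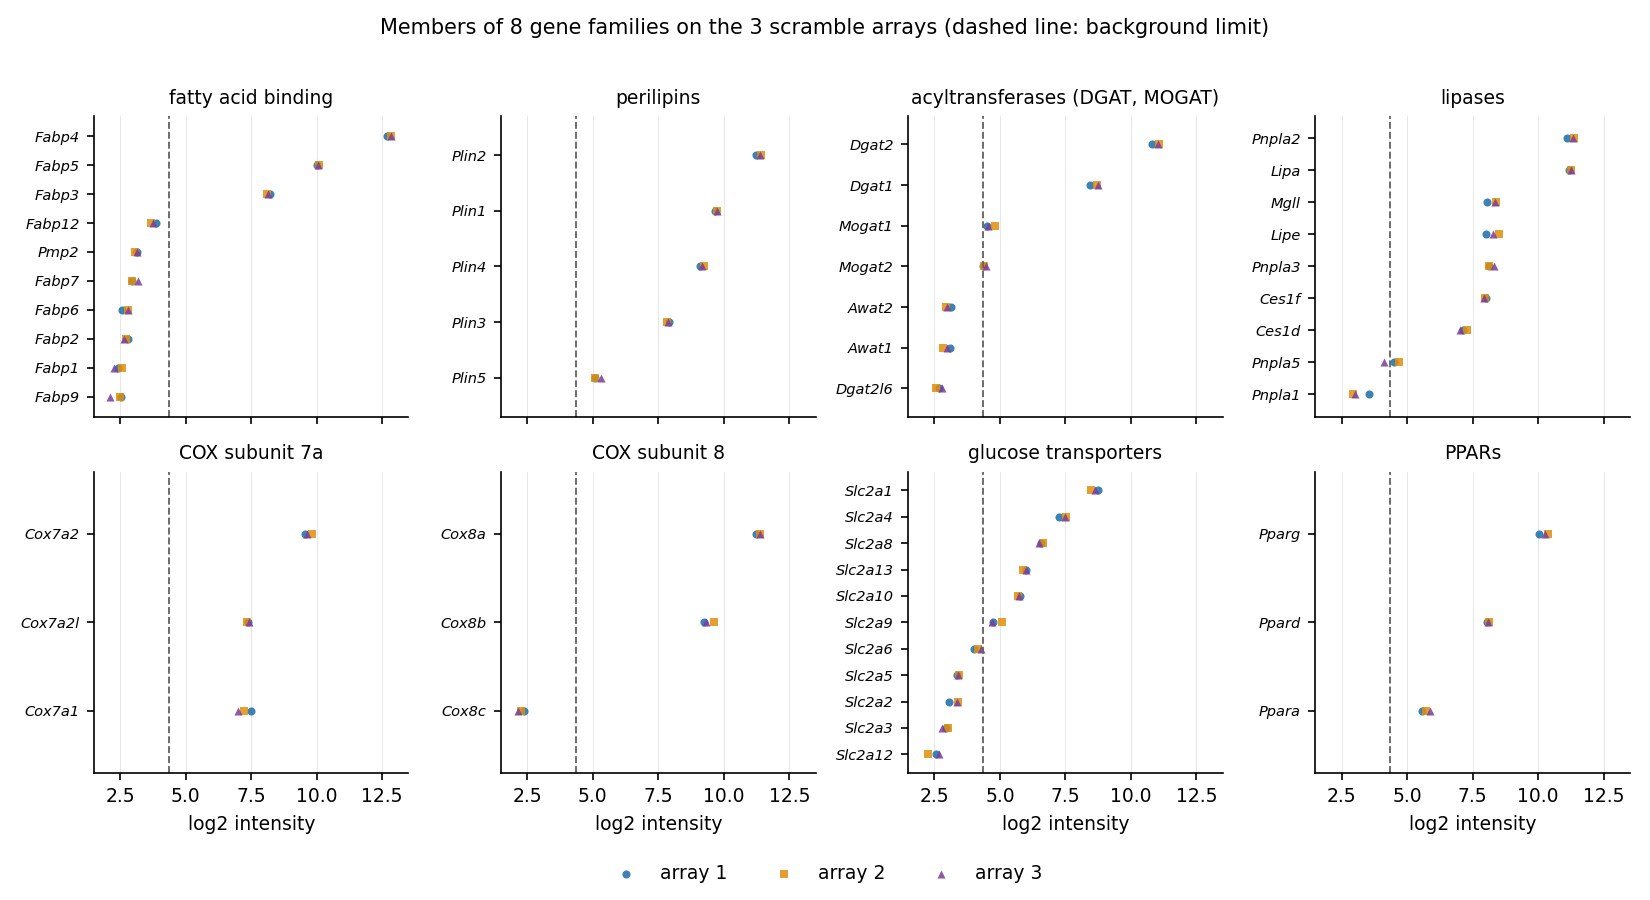
Log2 intensity (horizontal axes) of every measured member (vertical axes) of 8 gene families on scramble arrays 1, 2 and 3 (circles, squares and triangles), with the background limit of 4.34 as a dashed line. Every member of the perilipins, COX subunit 7a and the PPARs lies right of the line, while the other families run across it. The points of the 3 arrays lie closer to each other than the gaps between leading members. The exception among the leaders is the pair Pnpla2 and Lipa.

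Glucose uptake and glycolysis also ran mostly through 1 isoform each, with a leader in 9 of 10 families and 26 of 44 members above background (50.6% of all genes). The brightest transporter was Slc2a1, the basal transporter, which read 8.75, 8.48 and 8.64. Slc2a4, the insulin-responsive transporter of fat and muscle, read 7.24, 7.51 and 7.48. This order depends on the probe set: the second one of Slc2a1 read 4.29, and with it Slc2a4 came first.

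Hk2, the insulin-regulated hexokinase, exceeded Hk1 by 1.61 ± 0.11, and Pfkl, the liver phosphofructokinase, exceeded Pfkp by 1.55 ± 0.09. Pkm, the pyruvate kinase of most tissues, was at 10.75 ± 0.06, while the liver and red cell form Pklr was at background. Ldhb, the heart form of lactate dehydrogenase, exceeded Ldha, the muscle form, by 1.42 ± 0.11. Slc16a1, which carries lactate and pyruvate, was at 9.28 ± 0.09. It was the single monocarboxylate transporter above background of 5 measured (50.6% of all genes). Pdk4, which shuts pyruvate out of the citric acid cycle, was at 9.63 ± 0.13 and led Pdk2 by 1.61 ± 0.05. Gpd1, which makes the glycerol phosphate backbone, was at 11.85 ± 0.02 by its brighter probe set and at 6.20 by the other. With the dimmer one Gpd2, the mitochondrial form, came first.

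Nuclear genes for mitochondrial proteins gave a leader in 13 of 19 families, and 42 of 58 members were above background (50.6% of all genes). In cytochrome c oxidase the widely expressed isoforms stood far above the muscle, lung or testis forms. Cox6a1 read 12.79, 12.86 and 12.88, and the heart and muscle form Cox6a2 was at background at 3.96 ± 0.17. Cox4i1 was at 10.42 ± 0.15 against 3.34 ± 0.33 for Cox4i2, the form known from lung. The testis gene Cyct was at 2.41 ± 0.11, while somatic cytochrome c, Cycs, was at 11.58 ± 0.16 by the brightest of 5 probe sets and at 5.46 by the dimmest.

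A pair of heart, muscle and brown fat isoforms was present beside the general ones. Cox8b read 9.26, 9.63 and 9.30, next to 11.32 ± 0.09 for Cox8a. Cox7a1 read 7.50, 7.23 and 6.98, next to 9.66 ± 0.15 for Cox7a2. Both were above background on every array. Cox8b was second in its family, 1.93 ± 0.15 below Cox8a, while Cox7a1 came after Cox7a2 and overlapped Cox7a2l (7.37 ± 0.03), a relative found in respiratory supercomplexes.

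Of the adenine nucleotide translocases, Slc25a5, the form of proliferating cells and many tissues, exceeded the heart and muscle form Slc25a4 by 2.23 ± 0.09. Ndufa4, a subunit associated with cytochrome c oxidase, was at 11.25 ± 0.05, and its hypoxia-induced relative Ndufa4l2 was at background at 3.69 ± 0.06. Ckb, the brain creatine kinase, was the single creatine kinase above background of 4 (50.6% of all genes), at 6.19 ± 0.08. The measured members of the uncoupling protein family were dim. The highest of them was Slc25a27 at 5.42 ± 0.11, and Ucp3 followed at 4.93 ± 0.11. Ucp2 was not analysed here, so the level of the whole family is not known.

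The lists of white, brown and beige fat markers were each split between bright genes and genes at background. Of the brown fat markers, 14 of 21 were above background, of the white 8 of 13 and of the beige 5 of 11 (50.6% of all genes). Several brown markers were bright. Acot2, a mitochondrial thioesterase, read 10.10, 10.31 and 10.42, and Elovl3, a fatty acid elongase of cold-exposed brown fat, read 8.58, 8.93 and 8.98. Cidea, Pdk4, Cox8b and the mitochondrial gene Letmd1 lay between 9.77 and 8.77.

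The genes that define the thermogenic program were at or near background. Ucp1 read 4.15, 4.11 and 3.73, below the limit on all 3 arrays. Ppargc1a, the coactivator that drives mitochondrial growth, was at 4.11 ± 0.19, and Dio2, which activates thyroid hormone, was at 3.28 ± 0.12. The brown lineage genes Zic1 (3.42 ± 0.08) and Lhx8 (2.98 ± 0.39) were at background too. Prdm16, the cofactor that sets brown fate, was just over the limit at 4.89 ± 0.09, but at 3.93 by its other probe set.

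The white fat list was split in the same manner. Retn, the hormone resistin, read 11.52, 11.76 and 11.68 and exceeded the next marker, Nrip1, by 3.96 ± 0.17. Lep, the hormone leptin, read 3.35, 3.58 and 3.52 and was at background. Hoxc8 (3.62), Hoxc9 (2.99 ± 0.20) and Tcf21 (3.50 ± 0.10), markers of white fat position and precursors, were at background as well. Agt, angiotensinogen, was at 6.80 ± 0.15 and Slc7a10, an amino acid transporter of white fat cells, at 4.47 ± 0.12, just over the limit.

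Of the beige markers, Tbx1, a T-box factor, was the brightest at 8.16 ± 0.18. Slc27a1, a fatty acid transport protein, followed at 7.28 ± 0.20, and then came Car4 and Cited1, the latter at 5.46 ± 0.09. The surface markers Tmem26 (3.99 ± 0.06) and Tnfrsf9 (3.90 ± 0.31) were at background. Genes of heat production without UCP1 were mixed. Atp2a2, a calcium pump, was at 9.93 ± 0.06, Slc6a8, the creatine carrier, at 8.55 ± 0.05 and Gamt, of creatine synthesis, at 8.11 ± 0.04. Gatm, which starts creatine synthesis, and the calcium channel genes Ryr1, Ryr2 and Ryr3 were at background.

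**Figure D3:**
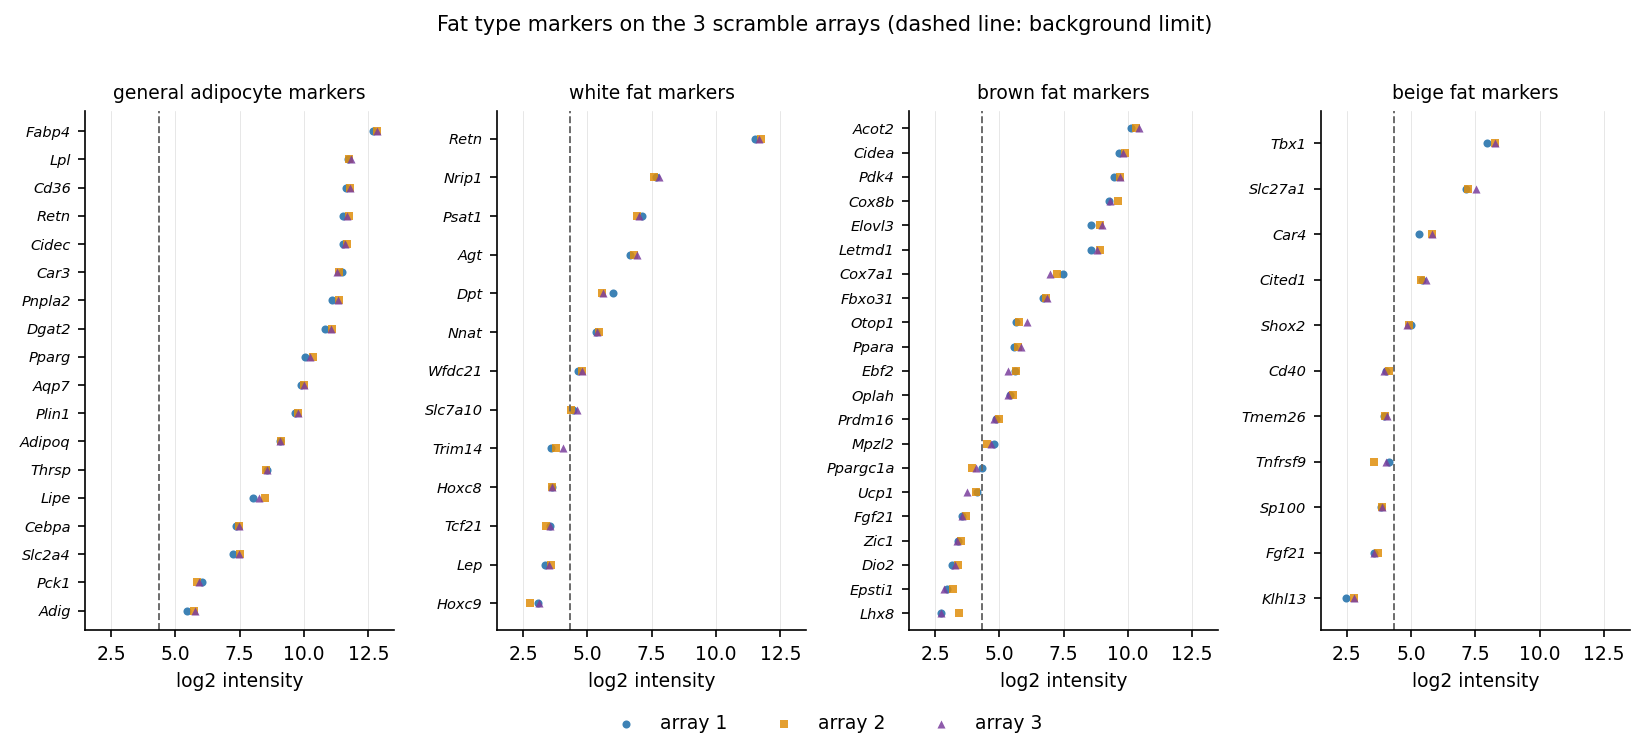
Log2 intensity (horizontal axes) of general adipocyte, white, brown and beige fat markers (vertical axes) on scramble arrays 1, 2 and 3 (circles, squares and triangles), with the background limit of 4.34 as a dashed line. All 18 general markers lie right of the line, while each fat type list runs across it, with Ucp1 and Lep to its left.

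Of 28 measured genes for factors that fat cells are known to secrete, 18 were above background (50.6% of all genes). After Retn came Fstl1, a matrix-bound glycoprotein, at 10.92 ± 0.14 and Nampt, an NAD-producing enzyme that is also secreted, at 9.98 ± 0.17. Angptl4, an inhibitor of lipoprotein lipase, was at 9.48 ± 0.14, and Hp, haptoglobin, was at 8.77 ± 0.13. Cxcl12, a chemokine of stromal cells, was at 9.33 ± 0.11. Il6 (3.83 ± 0.11), Tnf (3.36 ± 0.14) and the serum amyloid gene Saa3 (4.01 ± 0.26) were at background, and the chemokine gene Ccl2 was at 5.41 ± 0.35. Rbp4, Fgf21 and Itln1 were at background too.

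Transcription factor families seldom had 1 leading member: 4 of 22 did, and 128 of 207 members were above background (50.6% of all genes). Pparg read 10.04, 10.36 and 10.25 and exceeded Ppard, the ubiquitous form, by 2.13 ± 0.12 (4.37-fold). Ppara, the form of liver and brown fat, was the lowest of them at 5.72 ± 0.15. Its partner Rxra was at 8.23 ± 0.05 and exceeded the next of its family, Rara, by 1.03 ± 0.14, a gap that fell under 1 without array 1. Ebf1, which promotes adipogenesis, read 10.37, 10.33 and 10.46 and led Ebf3 by 2.95 ± 0.08. Ebf2, the brown fat form, was at 5.54 ± 0.16 by its brighter probe set and at background, 2.89, by the other. Foxo1, a factor restrained by insulin, led its family at 7.77 by its brighter probe set, but the other read 5.62 and put Foxo4 first.

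In the C/EBP family no member led by over 1 log2 unit, and all 6 measured members were above background (50.6% of all genes). The order ran from Cebpg at 8.67 ± 0.10 and Cebpb at 7.96 ± 0.21 to Cebpa at 7.42 ± 0.07. Ddit3, which is induced under stress, was at 7.02 ± 0.13. Cebpd, an early factor of adipogenesis, lay lower at 5.90 ± 0.04. Cebpe, a factor of myeloid cells, was lowest at 4.59 ± 0.17. Other bright factors were Stat3 (9.70 ± 0.05), Klf6 (9.12 ± 0.06), the glucocorticoid receptor Nr3c1 (8.21 ± 0.10) and Srebf2 (8.63 ± 0.06), which governs sterol synthesis. Srebf1, the fatty acid form, was at 7.88 ± 0.07. The cartilage factor Sox9 was bright at 9.58 ± 0.15, above Sox4 at 8.75 ± 0.12, and 12 of 19 SOX factors were at background.

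Hox genes, which record position along the body axis, were on mainly in the A cluster. There 6 of 9 measured genes were above background, and the next best cluster, B, had 2 of 10, against 50.6% of all genes. The bright ones were Hoxa2 (7.72 ± 0.11), Hoxa7 (7.49 ± 0.14), Hoxa6 (7.17 ± 0.05), Hoxa4 (6.68 ± 0.30) and Hoxa5 (6.57 ± 0.12). Hoxa13, the other of the 6, lay 1.98 ± 0.05 below Hoxa5, near the limit. Under each of the stricter limits the A cluster count was 5. Hoxa3 lies between bright neighbours, yet it read 4.33, 4.53 and 4.48, at the limit. Hoxa9 and Hoxa10 were at background. The B cluster genes Hoxb1 (4.72 ± 0.33) and Hoxb5 (4.68 ± 0.24) lay just over the limit, and neither passed the stricter limits. None of the 9 C cluster genes and none of the 8 D cluster genes measured passed, the highest being Hoxc12 at 4.19 ± 0.06.

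**Figure D4:**
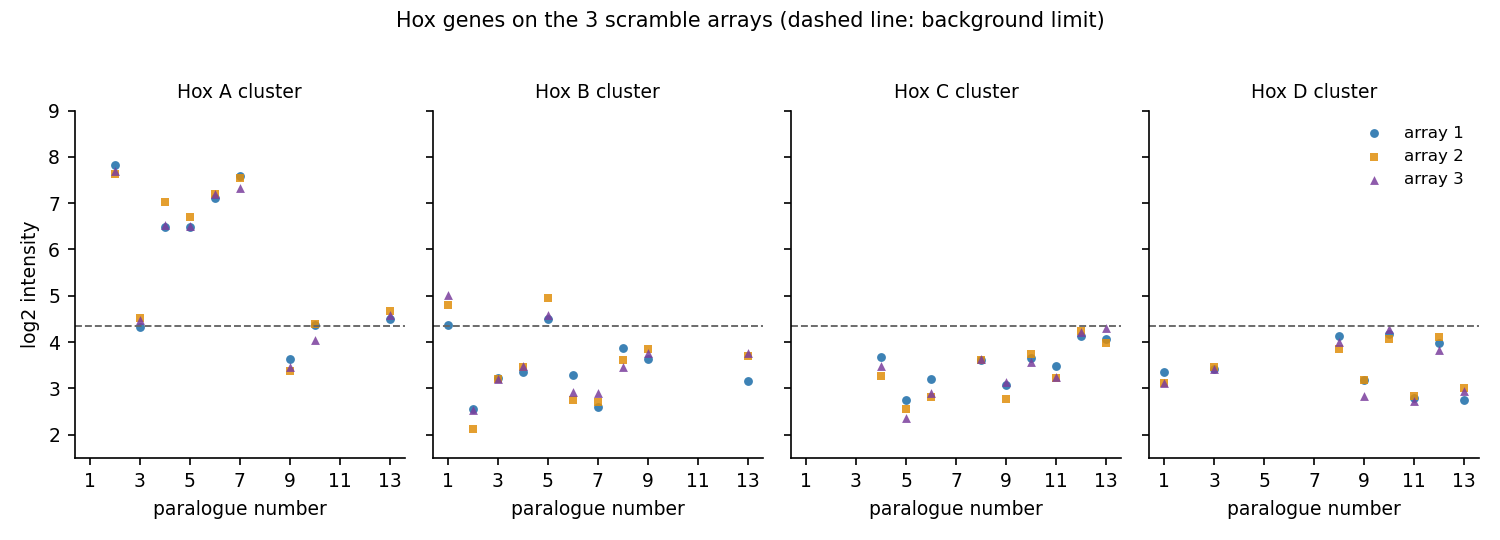
Log2 intensity (vertical axis) of the measured Hox genes of clusters A to D against their paralogue number (horizontal axes) on scramble arrays 1, 2 and 3 (circles, squares and triangles), with the background limit of 4.34 as a dashed line. The bright points are Hoxa2 and Hoxa4 to Hoxa7; the B, C and D clusters stay at or near the line or below it.

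Several matrix genes were bright in these fat cells. As a whole, the 145 measured had a median of 5.8, against 6.1 over the 631 measured genes of all families. All 11 fibrillar collagen genes and all 12 small leucine-rich proteoglycan genes were above background, as were 98 of 145 matrix genes in all (50.6% of all genes). Type I collagen was even between its chains. Col1a2 read 11.12, 10.81 and 11.09 and Col1a1 read 11.04, 10.70 and 10.94, with a gap of 0.12 ± 0.04. Col3a1 was at 10.70 ± 0.14. The brightest collagen of all was Col6a1, of the microfibrils that surround fat cells, at 11.74 ± 0.08.

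Bgn stood 1.41 ± 0.01 over Ogn (osteoglycin), and Aspn (asporin) and Dcn (decorin) followed at 10.96 ± 0.10 and 9.92 ± 0.18. Among glycoproteins, Postn (periostin) was at 11.98 ± 0.10 and Fn1 (fibronectin) at 11.50 ± 0.16. Lox, which cross-links collagen, was at 11.75 ± 0.10 and led Loxl1 by 2.10 ± 0.05.

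Of 21 measured matrix metalloproteinases, 8 were above background (38.1%, against 50.6% of all genes). The membrane enzyme Mmp14 (10.34 ± 0.09) and the gelatinase it activates, Mmp2 (10.12 ± 0.15), came first, with Mmp19 at 9.24 ± 0.07. The stromelysin Mmp3 and the collagenase Mmp13 were at background, at 2.40 ± 0.06 and 2.84 ± 0.03, with 11 others. Of their inhibitors, Timp2 (10.78 ± 0.08) and Timp3 (10.29 ± 0.15) were bright. The integrin that anchors cells to collagen and fibronectin was represented by Itgb1 at 10.39 ± 0.02, which led the β chains by 2.17 ± 0.06.

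In the Wnt and PDGF families the brightest receptors stood above the brightest ligands. Of the Wnt ligands, 5 of 19 were above background (26.3%, against 50.6% of all genes) and the highest, Wnt5a, was at 5.24 ± 0.07. Of the Frizzled receptors, 8 of 10 were above background (80%) and Fzd4 led at 9.19 ± 0.04. Pdgfra, a receptor of fat cell precursors, was at 10.41 ± 0.07 and Pdgfrb at 9.11 ± 0.12, with Pdgfc (7.23 ± 0.11) as the highest ligand of that family. Bmpr2, the type II BMP receptor, led its group at 10.29 ± 0.06. The insulin receptor Insr (7.90 ± 0.09) and the IGF-1 receptor Igf1r (7.82 ± 0.17) overlapped, below Irs1 at 8.46 ± 0.13.

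Over 11 lists of markers of other cell types, the share above background ran from 0% to 75%, beside 50.6% of all genes. In bulk RNA, fewer cells of a type and less RNA per cell cannot be told apart. None of 10 endothelial markers passed, with Kdr highest at 4.28 ± 0.12. Of 11 macrophage and leukocyte markers 3 passed: Cd68 (5.48 ± 0.05), Cd14 (5.30 ± 0.08) and Nkg7 (4.70 ± 0.04). Ptprc, the pan-leukocyte marker, was at 2.78 ± 0.17. None of 8 pluripotency and germ cell markers passed.

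Several lists held dim genes over the limit, which 50.6% of all genes passed. Of 16 skeletal muscle markers 6 passed, led by the actin gene Acta1 (6.17 ± 0.18) and including Myog (5.10 ± 0.34), a factor that drives muscle differentiation. Myod1 (3.92 ± 0.10) and the myosin heavy chain genes were at background. Of 9 epithelial and mesothelial markers 3 passed: Krt8 (5.37 ± 0.12), Cdh1 (4.72 ± 0.08) and Upk3b (4.39 ± 0.04). Of 9 neuronal and glial markers 2 passed, Rbfox3 (5.29 ± 0.08) and Syp (4.56 ± 0.06). The part of other cells in these levels was not tested.

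Of the mesenchymal progenitor and fibroblast markers, 11 of 17 were above background (64.7%, against 50.6% of all genes). Vim (12.53 ± 0.05), Pdgfra and Prrx1 (10.23 ± 0.04) were brightest. Pi16, Dpp4 and Nt5e, surface markers of early precursors, were at background. Of 8 smooth muscle and myofibroblast markers 6 passed (75%). Acta2 (10.45 ± 0.20) and Myl9 (8.94 ± 0.16) were bright. Of the genes of mature smooth muscle, Myh11 was at 4.97 ± 0.25 and Cnn1 was at background.

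Of 7 osteoblast markers 3 passed. Phex, an endopeptidase of bone cells, was at 10.62 ± 0.09, with the phosphatase gene Alpl at 6.30 ± 0.10 and bone sialoprotein, Ibsp, at 6.00 ± 0.04. The osteoblast gene Bglap, the factor Sp7, Sost and Dmp1 did not pass. Of 8 hepatocyte markers, Cyp2e1, a cytochrome P450 of liver, was at 9.51 ± 0.31 and Apoa1 was just over the limit at 4.43 ± 0.08, while Alb, Ttr and the other 4 were at background. Of 10 cartilage genes 4 passed: Sox9, Cnmd (7.75 ± 0.13), Col2a1 (6.53 ± 0.19) and Col9a1 (5.66 ± 0.19). Acan, the main cartilage proteoglycan, was at 3.30 ± 0.25. Of the proliferation genes 18 of 19 were above background (94.7%, against 50.6% of all genes), among them Ccnd1 at 8.76 ± 0.13 and Mki67 at 7.22 ± 0.25.

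The 3 largest SDs among genes above background belonged to Ifit1, Usp18 and Rtp4, members of the interferon-stimulated set that cells switch on when interferon or viral nucleic acid is sensed. Counting genes at least 1 log2 unit above both other arrays, and above background on that array, array 3 had 8 (0.0364% of genes), array 2 had 1 (Defb7) and array 1 had 0. The 8 on array 3 were Rtp4, Ifit1, Usp18, Gbp7, Igtp, Apol9b, Oasl2 and Dhh. Apart from the signalling ligand gene Dhh, these are known as interferon-inducible. Of the 15 genes above background with the largest SD, those 5 of the 8 that passed on every array came with Isg15, Ifit3, Rnf213 and Phf11d, which are also known to respond to interferon. The remaining 6 were Nanp, Cyp2b10, Mfsd2a, Eif4a3, Rgs4 and Klk1b22.

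Ifit1, which binds foreign RNA, read 6.19, 6.21 and 7.86. Usp18, which removes the ISG15 tag and dampens interferon signalling, read 5.11, 5.07 and 6.67. Isg15 itself, the ubiquitin-like tag, read 4.55, 4.65 and 5.46. In each case arrays 1 and 2 nearly coincided and array 3 stood apart.

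Of the 12 listed interferon-stimulated genes above background, 10 were highest on array 3, against 33.3% of all genes above background. Their median deviations from each gene's own mean were -0.20, -0.16 and 0.32 on arrays 1, 2 and 3. The sensors Ddx58 (7.66, 7.73 and 8.15) and Ifih1 (6.00, 6.12 and 6.54) shared the order. So did Irf7, the factor that amplifies the response, with 5.63, 5.70 and 6.19. Stat2, a factor of the interferon pathway listed with its family, read 8.01, 8.09 and 8.52.

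The pattern was not shared by the whole list. Ifit3 read 5.89, 5.02 and 5.09 and was highest on array 1, and Cxcl10 was also highest there. Ifnb1, which encodes interferon β, was at background on all arrays, as was Mx1. All 3 controls had received the virus, and what sets array 3 apart was not tested.

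Promoter stretches of Ifit1, Isg15, Gbp7, Igtp and Ifit3 are shown because the genes share a sequence motif while their spread over the arrays differs. They come from the RefSeq promoter table of assembly GRCm38.p6, end at the base before the annotated start, and read 5′ to 3′ along the gene. Capitals mark GAAANNGAAA, the core of the interferon-stimulated response element, or its reverse complement TTTCNNTTTC, with overlapping matches merged. Ifit1 is at chr19:34640759-34640888 (plus strand), Isg15 at chr4:156200819-156200948 (minus strand), Gbp7 at chr3:142530206-142530335 (plus), Igtp at chr11:58199426-58199555 (plus) and Ifit3 at chr19:34583363-34583528 (plus).
Ifit1: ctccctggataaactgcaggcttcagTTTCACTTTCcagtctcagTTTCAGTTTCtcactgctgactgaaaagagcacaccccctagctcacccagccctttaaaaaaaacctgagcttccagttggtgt
Isg15: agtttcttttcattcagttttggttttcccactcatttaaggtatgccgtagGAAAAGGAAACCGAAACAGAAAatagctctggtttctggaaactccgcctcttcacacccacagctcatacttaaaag
Gbp7: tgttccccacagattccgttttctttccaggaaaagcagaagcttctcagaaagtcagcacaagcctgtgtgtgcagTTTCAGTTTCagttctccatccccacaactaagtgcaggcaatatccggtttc
Igtp: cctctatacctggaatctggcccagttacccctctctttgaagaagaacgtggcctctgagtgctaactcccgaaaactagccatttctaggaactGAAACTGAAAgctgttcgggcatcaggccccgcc
Ifit3: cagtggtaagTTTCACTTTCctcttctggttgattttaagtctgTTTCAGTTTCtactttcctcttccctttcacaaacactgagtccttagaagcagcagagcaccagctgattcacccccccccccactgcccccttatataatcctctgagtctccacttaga

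In Ifit1 the matches begin at positions -104 and -85 from the start, and in Ifit3 at -156 and -122. Isg15 has 3 overlapping matches, from -78 to -66, while Gbp7 and Igtp have 1 each, at -53 and -34. Searching both strands of 250 bases before to 50 bases after each start, 8 of the 13 listed interferon-stimulated genes with a promoter entry held the motif (61.5%). Over all 16894 genes with an entry, the share was 3.87%. Of the 8 genes high on array 3, 6 had an entry and 4 of them held the motif. Ifit3 holds it as well and was not high on array 3. A match is a description of the letters and not a measured site.

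**Figure D5:**
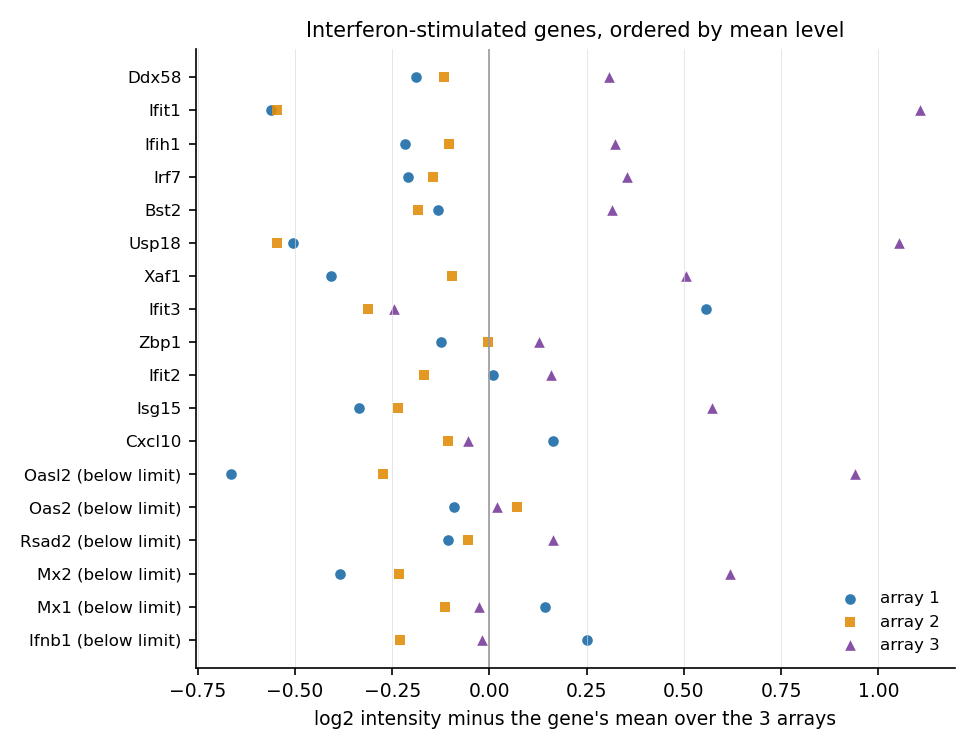
Log2 intensity minus the gene's own mean over the 3 scramble arrays (horizontal axis) for 18 interferon-stimulated genes in order of level (vertical axis), on arrays 1, 2 and 3 (circles, squares and triangles). Triangles lie furthest right for 13 of the 18, with Ifit1 and Usp18 furthest out, and Ifit3 shows the circle on the right instead.

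Smaller shifts between the arrays ran through the fat cell and matrix genes. Array 1 was lowest for 14 of the 18 general adipocyte markers and for 7 of the 8 fatty acid synthesis genes, with median deviations of -0.088 and -0.114. It was lowest for 37.5% of all genes above background. Array 2 was lowest for 9 of the 11 fibrillar collagens, with a median deviation of -0.149, against 33% of all genes above background. Array 1 was highest for 10 of the 18 proliferation genes above background, against 31.9% of all. Cyp2b10, a cytochrome P450 gene, read 7.50, 8.68 and 8.17, and Mfsd2a, a lipid transporter gene, read 5.01, 6.06 and 5.73. Rgs4, a brake on G protein signalling, ran the other way, with 5.85, 4.83 and 5.21. What set these shifts was not tested.

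Promoter composition differed along the range of brightness. The CpG ratio, the number of CG pairs over the number that the C and G content predicts, had a median of 0.26 over 7748 genes below the limit. It was 0.65 between the limit and 6, 0.79 between 6 and 8, 0.81 between 8 and 10 and 0.80 over 10. The olfactory and vomeronasal receptor genes, whose levels set the limit, lie mostly in the lowest band by construction. They had a median of 0.11 over the 1173 with a promoter entry. A ratio over 0.6 was found in 19.2% of the genes below the limit and in 81.3% of those between 8 and 10. The general adipocyte markers had a lower median ratio than any of the bands above the limit. Over the 13 with an entry the median was 0.22, with 0.09 for Retn, 0.22 for Cd36 and 0.28 for Cidec, while Cebpa had 0.85. A low median was not particular to them. Among the other lists examined, the olfactory and vomeronasal receptors were lower still. The rest ran from 0.31 for the small leucine-rich proteoglycan and interferon-stimulated genes to 0.94 for the proliferation genes.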

How the data were processed

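Total RNA was hybridised to 1 Affymetrix Mouse Gene ST array per sample, per the labels. The authors deposited 1 linear intensity per probe set and array, unpooled. The submitters' processing notes name Affymetrix Expression Console and Partek 6.6. The sources used here do not give the background correction, which matters most for dim genes, nor the summarisation, normalization or genome build. Log2 was taken with no offset or rescaling (Python 3.11.15, pandas 2.3.3). Genes were named from the platform annotation, checked against RefSeq GRCm38.p6, where 163 had no match. Probe sets with several symbols (1740) or none here (8296) were left out. Among 615 genes with several probe sets, at least 1 above the limit, probe sets of 1 gene differed by a median of 2.41 log2 units.

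Members and gene lists (116 families) were chosen with earlier results of these data known. Of 1015 list entries 79 had no value. The rule named the 20 brightest genes (predicted, microRNA and small RNA genes left out), the 15 above background with the largest SD, and family leaders and members at background. The code was tested on simulated data. Alternatives covered the probe set, scaling, an offset, the limit, the gap and each array left out.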

Additional observations from a re-analysis of the deposited data

How the results depend on the processing

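Scaling by quantiles or medians, an offset of 32 before log2, the probe set that stands for a gene and the leaving out of each array were tried on 4 results. The number of genes above background ranged from 8869 (limit from keratin-associated, defensin and bitter taste receptor genes) to 11559 (mean of the arrays over the limit). It was 11063 to 11396 with an array left out, 9542 with the limit at the 99th percentile and 10818 with the dimmest probe set. The count of leading family members was 50 of 90, and 48 to 50 with an array left out. It fell to 26 with a minimum gap of 2 log2 units and rose to 79 with no minimum gap, as that alternative's construction makes it. With the dimmest probe set, 85 of 90 families kept their first member, and Slc2a1, Gpd1, Foxo1, Yap1 and Itgav lost that place. Of the 50 brightest genes, 37 remained with the dimmest or the mean of the probe sets, and 48 to 49 with an array left out. The median SD was 0.0697 to 0.0785 with an array left out. It is then taken over 2 arrays, which lowers the median by construction. The other alternatives, chosen after seeing the data, concerned single lists. Array 3 exceeded the mean of the others by a median of 0.467 over the 18 interferon-stimulated genes, and by 0.309 to 0.473 under 7 alternatives. The Hox genes above background outside the A cluster numbered 2, and 0 to 2 under 11 alternatives, with 1 (Hoxb5) without array 3. The brown fat markers above background numbered 14, and 12 to 14 under the same 11 alternatives. Lep and Ucp1 stayed at background in all of them. No paired analysis was possible because a single group of arrays was described. Dim genes limit these results most: near the limit, a call above background rests on differences of the size of the SD.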

Other observations

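All 13 measured genes of the unfolded protein response were above background (50.6% of all genes), led by Calr (11.82 ± 0.04) and Hsp90b1 (11.79 ± 0.07), which fold secreted proteins. Trib3 (5.09 ± 0.21) and Chac1 (5.33 ± 0.17), which are induced under stress, were the dimmest. Of 13 imprinted growth genes, 11 were above background, but 8 of the 11 lay below 7. Mest, a gene known to rise with fat cell size, was at 10.65 ± 0.16 and led Grb10, a brake on insulin signalling, by 1.06 ± 0.10. Igf2 (4.60 ± 0.04) and Dlk1 (4.57 ± 0.14), the marker of preadipocytes, were just over the limit.

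Acute phase genes were split: Cp, ceruloplasmin, was at 9.62 ± 0.09 and Orm1, an acute phase glycoprotein, at 8.22 ± 0.10, while Crp and the serum amyloid genes Saa2, Saa3 and Saa4 were at background. Xist, the RNA that coats the inactive X chromosome, read 10.50, 10.57 and 10.66. Of 17 genes of the Y chromosome, 1 was above background (5.88%, against 50.6% of all genes).

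A few genes expected to be silent were bright, by 1 of their probe sets. Vmn1r233, a vomeronasal receptor gene, read 11.94, 11.94 and 11.95 and ranked 43 of all genes, while its other probe set had a mean of 2.12. The next receptor, Olfr1360, was at 6.44 ± 0.22. Odf1, a gene of the sperm tail, was at 11.95 ± 0.07 by 1 probe set and 3.65 by the other, with the germ cell markers at background. Cyp2f2, a cytochrome P450 gene known from lung airway, was at 12.03 ± 0.10 by 1 probe set and 5.67 by the other. What the bright probe sets bind was not tested.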
